A study of Mus musculus with 28 samples.

Results

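The hemibrains of 14 wildtype mice were compared with one another, 14 of the 28 libraries in the series, chosen because their labels give the genotype as wildtype (WT). All were C57Bl/6J mice carrying intact Grn and Tmem106b, the genes deleted in the knockout mice, which were not used here. WT saline mice (7, of which 4 males and 3 females) had been injected intravenously with isotonic saline when 6 weeks old. WT AAV mice (7, with the same split of sexes) had been given AAV(L):bPGRN by the same route and at the same age, in a dose of 1.3e+13 vector genomes per kg. The virus is directed to the liver and encodes human progranulin joined to 8D3, an antibody fragment against the transferrin receptor of the mouse. Both groups were killed 9 to 10 weeks later, at 15.0 weeks in batch 1, 16.0 weeks in batches 2 and 3 and 15.5 weeks in batch 4, so that age and batch cannot be told apart. Sex was spread unevenly over the batches, and all wildtype mice of batch 2 were male. All animals were perfused with buffered saline, and 1 hemibrain, which by the study's description included the cerebellum and excluded the olfactory bulb, was frozen and powdered.

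A hemibrain pools many regions and cell types, so the level of a transcript in it depends both on what each cell makes and on how much of each region was taken. Cerebellum, pituitary, olfactory nerve, choroid plexus and blood each express a few genes at very high levels that the rest of the brain lacks, and these serve as tracers of tissue content. In such bulk samples, fewer cells of a type and less RNA per cell cannot be told apart.

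Polyadenylated RNA was counted as 3' tags, 1 tag per molecule, so levels were not corrected for length. How evenly the tags of different genes were captured and counted was not tested, so ranks between genes are those of counted tags. Levels are given in CPM (counts per 1e+06, with library sizes scaled by TMM factors), and the error is the SD over mice. Total counts ran from 1164637 to 1613308 per library with a median of 1368620. RNA integrity numbers ran from 9.1 to 9.9. A count was found for 22908 genes and 11369 passed the filter on low counts. Grn was measured at 78.2 to 269 CPM, Tmem106b at 73.4 to 145 CPM and Fam171a2, a gene next to Grn, at 46.1 to 99.1 CPM, with no library of the 14 near 0. Defining markers of neurons (Camk2a), astrocytes (Glul, Aldoc), oligodendrocytes (Mbp) and microglia (Cst3, Cx3cr1) were present in every library. The skeletal muscle genes Ckm, Myh4, Myh1, Tnnt3, Tnnc2 and Mylpf were too low to be tested.

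The transcriptome of the wildtype hemibrain was headed by mitochondrial transcripts, myelin and astrocyte genes. The mitochondrial genome gave 19.6% ± 1.32 of all counts (SD, n = 14), between 17.4% in WT AAV 3 and 21.9% in WT AAV 5. Nuclear protein-coding genes gave 77.5% (75.0% to 80.2%) and nuclear long non-coding RNAs 2.37% ± 0.253. The leading gene, mt-Rnr2 (the large mitochondrial ribosomal RNA), took 5.81% ± 0.690 of counts, the first 10 genes 20.9% ± 1.40, the first 100 genes 34.2% ± 1.48 and the first 1000 genes 61.3% ± 1.02. Of the tested genes, 9236 had a mean of at least 10 CPM, 1807 of at least 100 CPM and 64 of at least 1000 CPM.

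In WT saline mice mt-Rnr2 had a lowest, median and highest level of 54262, 60512 and 75958 CPM, and in WT AAV mice of 47434, 53831 and 72911 CPM. The ranges of the groups overlapped. The respiratory chain genes mt-Nd1 (34787 ± 3972 CPM), mt-Nd4 (31312 ± 3490 CPM) and mt-Cytb (25527 ± 1992 CPM) and the small ribosomal RNA mt-Rnr1 (26242 ± 3692 CPM) followed. Of 15 mitochondrial genes listed, mt-Nd4l, mt-Co2, mt-Co3, mt-Atp6 and mt-Atp8 had too few counts to be tested, and mt-Nd3 averaged 18.8 CPM. Whether these low counts came from expression or from how tags were captured and assigned to genes was not tested. They are therefore not read as low expression. The highest nuclear row was Gm42418 at 8428 ± 2070 CPM, a non-coding gene on chromosome 17 that overlaps a copy of the cytosolic ribosomal RNA. Other nuclear genes of high level were Bc1, a short neuronal RNA found in dendrites (5482 ± 1047 CPM), and Fth1, the ferritin heavy chain that stores iron (5365 ± 635 CPM).

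Glial genes filled much of the rest of the 25 highest. Mbp, a main protein of central myelin, averaged 5064 ± 1311 CPM. Of the astrocyte genes, Glul (glutamine synthetase) averaged 3723 ± 298 CPM, Aldoc (a glycolytic aldolase also made by Purkinje cells) 3651 ± 326 CPM, and Slc1a2 (the main glutamate transporter) 2922 ± 354 CPM. Among neuronal genes, Camk2a, a kinase of excitatory synapses, averaged 2130 ± 554 CPM. The 25 genes differed in how tightly the mice agreed: the coefficient of variation (SD over mean) was 7.80% for mt-Cytb and 8.00% for Glul, against 24.6% for Gm42418 and 25.9% for Mbp. Mbp ran from 3355 to 7164 CPM, and WT saline 6 and 7 and WT AAV 4, 6 and 7 were the 5 lowest. Camk2a ran from 1433 to 3083 CPM, and the same 5 mice were among its 6 highest.

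**Figure D1:**
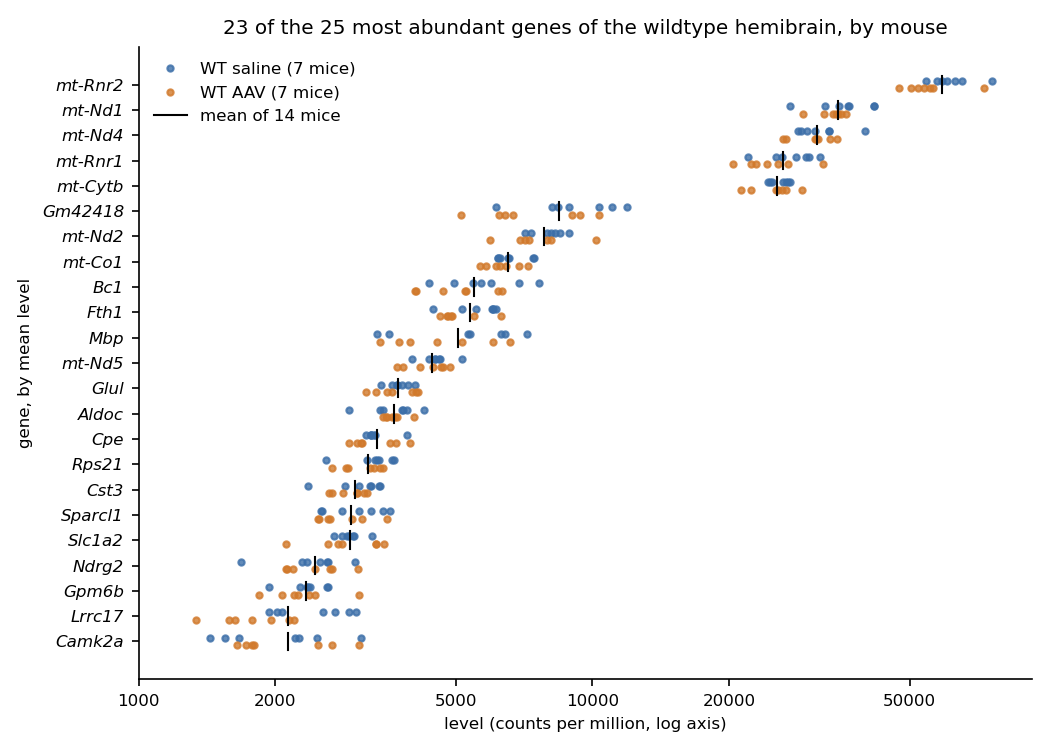
Level of 23 of the 25 most abundant genes (horizontal log axis, CPM) in each WT saline mouse (blue) and WT AAV mouse (orange), with a bar at the mean of 14 mice. mt-Rnr2 leads at a mean of 58820 CPM and the groups overlap in every gene drawn, while Mbp, Camk2a and Gm42418 are spread more widely than mt-Cytb or Glul.

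The steadiest genes were sought only among those with a mean of at least 100 CPM. The 10 with the least spread all had an estimated biological coefficient of variation at the lower bound of the method, 0.988%. No spread beyond counting error was thus estimated for them. Genes tied at this bound were ordered by SD over mean, which includes counting error. Eif1, a factor that selects the start codon in translation, stayed between 271 and 322 CPM in all 14 mice (300 ± 13.1 CPM). Bsg (basigin, 241 ± 12.6 CPM) and Tpi1, a glycolytic enzyme (238 ± 12.6 CPM), were next, and Rufy3, Mgea5, Agtpbp1, Golph3, Fam53c and Ik were also among the 10.

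How far the mice differed was measured per gene in 2 ways, after fitting treatment and batch. The spread around the fit was compared with sampling noise, including the rounding of the deposited counts, and 2389 of 11369 genes (21.0%) varied beyond it (chi-square over 9 degrees of freedom, Benjamini-Hochberg adjusted p under 0.05). The share depended on level: 5.53% of the 2133 genes under 10 CPM, 15.3% of the 7429 genes from 10 to 100 CPM, 61.3% of the 1743 genes from 100 to 1000 CPM, and 63 of the 64 genes above. In low genes a spread of typical size was not detectable at this depth. The typical size was small: the median biological coefficient of variation (the spread left when counting noise is taken out) was 9.31%. Against the trend of genes of like level, 188 of 11369 genes (1.65%) varied more than their peers (edgeR goodness of fit, adjusted p under 0.05), and 178 of these had a mean of at least 5 CPM. In 8 of the 188, 1 mouse held more than 50% of the squared residuals.

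**Figure D2:**
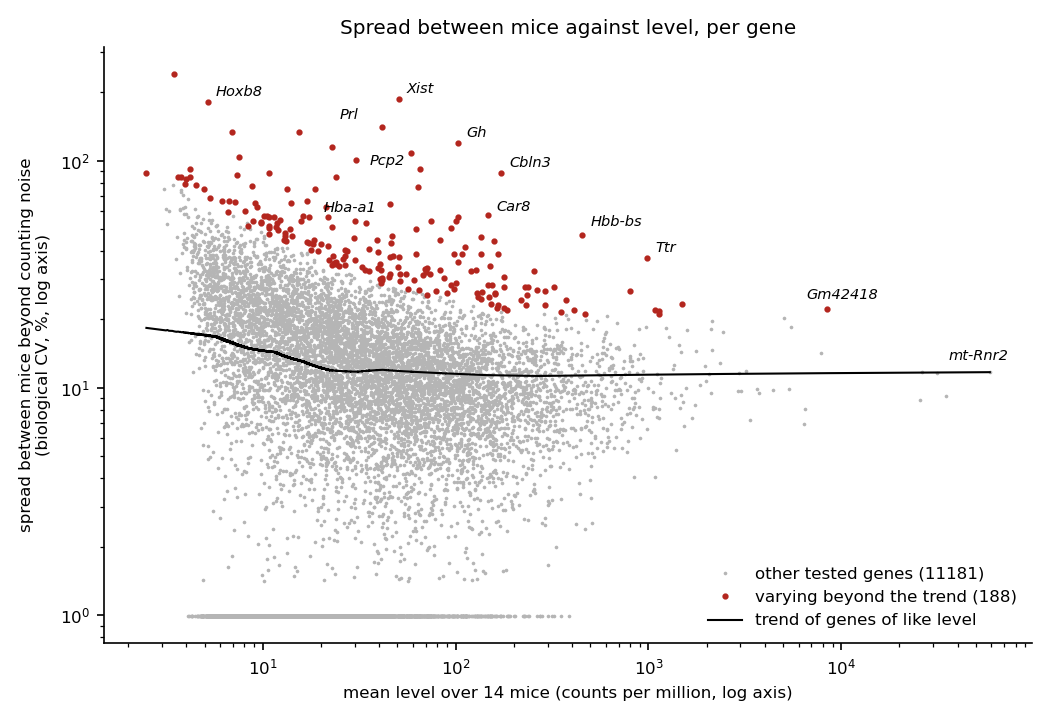
Biological coefficient of variation between mice (vertical log axis, percent) against mean level (horizontal log axis, CPM) for the 11369 tested genes, with the 188 that varied beyond the trend (black line) in red. Of the genes labelled, Xist, Hoxb8, Prl and Gh lie farthest above the trend. Points on the line at 0.988% are at the lower bound of the estimate.

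The 30 genes with the smallest p against the trend were led by Xist, Gh, Prl, Ddx3y, Cbln3, Pomc, Cga, Pcp2, Car8 and Hbb-bs, genes of sex, pituitary, cerebellum and blood. Another 11 of the 30, among them Tsc22d4, Araf, Nrn1 and mt-Nd3, belonged to a group of 79 genes of mixed function that moved together and was the largest group found. To see which tissue each belonged to, 31 lists of markers of brain regions, cell types and responses were used. The 30 lists with at least 3 tested genes were scored in each mouse. A list score is the mean, over the list's tested genes, of the log2 level minus the mean of all 14 mice, so that 0 is the average mouse and 1 a doubling. The SD of the score over mice was 1.33 for the pituitary list, 0.77 for hindbrain and spinal cord, 0.70 for cerebellar neurons, 0.57 for olfactory bulb and 0.53 for red blood cells. It was 0.09 for astrocytes and for the circadian clock, 0.10 for inhibitory neurons, 0.11 for oligodendrocyte precursors and 0.13 for microglia and endothelium.

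**Figure D3:**
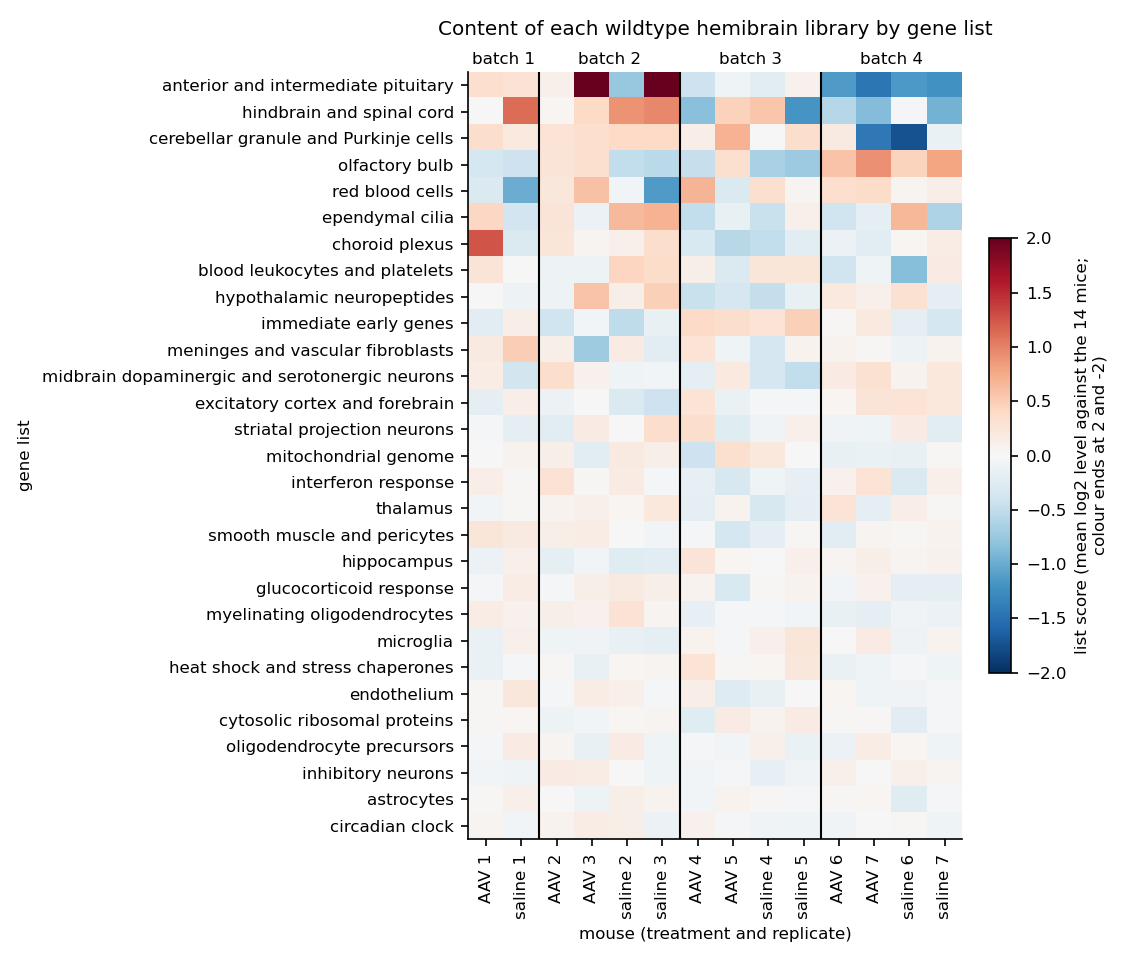
List score (colour, mean log2 level against the average of the 14 mice) of 29 gene lists (rows, widest spread at the top) in each mouse (columns, ordered by batch). The pituitary list is high in WT saline 3 and WT AAV 3 of batch 2, the cerebellar list is low in WT saline 6 and WT AAV 7 of batch 4, and scores in the rows from microglia downwards stay between -0.25 and 0.27.

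Cerebellar transcripts were nearly missing from 2 hemibrains. Cbln3, a secreted synaptic protein of granule cells, was at 2.58 CPM in WT saline 6 and 14.9 CPM in WT AAV 7, against 110 to 259 CPM in the other 12 mice. Gabra6, a GABA receptor subunit found almost only in granule cells, was at 0.646 and 9.09 CPM in these 2 mice and at 40.8 to 110 CPM in the others. Both mice belonged to batch 4 and to different treatment groups, 1 a male and the other a female.

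Genes of Purkinje cells, the output neurons of the cerebellar cortex, were low in the same mice. Pcp2, which is made almost only by them, was at 0.646 CPM in WT saline 6 and 4.13 CPM in WT AAV 7, and at 45.6 to 125 CPM elsewhere. Car8, another Purkinje gene, was at 17.4 and 27.3 CPM against 111 to 267 CPM. Cbln1, the synaptic organizer that granule cells release onto Purkinje cells, was at 11.6 and 19.8 CPM against 86.1 to 145 CPM. Neurod1, a transcription factor of granule cells that is also active elsewhere in the brain, was at 11.6 and 24.0 CPM against 78.9 to 128 CPM. In each of these genes the 2 mice were the lowest of the 14 and did not overlap the rest. Calb1, which many forebrain neurons make as well as Purkinje cells, was at 155 CPM in WT saline 6, within the 131 to 290 CPM of the other mice, and at 116 CPM in WT AAV 7.

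Of 21 tested genes on the cerebellar list, 17 varied beyond sampling noise and 11 beyond the trend (Cbln1, Cbln3, Gabra6, Neurod1, Zic1, Pcp2, Car8, Pvalb, En2, Crtam and Rgs8), where 21.0% and 1.65% of all genes did. The median biological coefficient of variation over the list was 33.0%, against 9.31% over all genes. The list score was -1.74 in WT saline 6 and -1.43 in WT AAV 7, and -0.13 to 0.69 in the other mice. Without these 2 libraries, a choice made after the values were seen, 3 of the 21 varied beyond the trend, Pcp2 and Car8 among them (adjusted p 0.000507 and 0.0304). Cbln3 then had an adjusted p of 0.0531, with its coefficient of variation going from 87.7% to 22.5%. Pcp2 still ran from 45.6 CPM in WT saline 4 to 125 CPM in WT AAV 5 among the 12.

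Pituitary hormones showed the opposite pattern, with a high level in 2 hemibrains. Gh, growth hormone, was at 531 CPM (670 counts) in WT saline 3 and 791 CPM (1200 counts) in WT AAV 3. In the other 12 mice it reached at most 47.5 CPM, and 3 mice, all of batch 4, had no count of it. A count of 0 allows up to 3 counts in such a library, for counting error only. Prl, prolactin, was at 151 and 224 CPM in the same mice and at 0 to 63.8 CPM elsewhere. Both mice belonged to batch 2, in which all wildtype mice were male, 1 to each treatment group.

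The other hormones of the gland were high in the same 2 mice. Pomc, the precursor of ACTH and melanotropin, which hypothalamic neurons also make, was at 151 and 198 CPM against 0.826 to 20.4 CPM. Cga, the common subunit of the glycoprotein hormones, was at 87.2 and 119 CPM and at no more than 2.16 CPM in the rest. Tshb, the thyrotropin subunit, gave 32 and 31 counts in these mice (25.4 and 20.4 CPM, so that here WT saline 3 was the higher) and 0 to 2 counts in the others. Summed over 7 hormone genes (Prl, Gh, Pomc, Cga, Tshb, Lhb and Fshb), the counts were 1200 in WT saline 3 and 2057 in WT AAV 3, where they made up 0.141% of the library, and 1 to 115 in the other 12. Of 8 tested pituitary genes, 5 varied beyond the trend (Prl, Gh, Pomc, Tshb and Cga), and 14 genes of the list, among them the transcription factors Pou1f1 and Tbx19, were too low to test. Without WT saline 3 it was 3 of them, without WT AAV 3 also 3, and without both 1, Prl (adjusted p 9.52e-13), while Gh, with a biological coefficient of variation still at 63.2%, had an adjusted p of 0.0763 and Pomc one of 1.00.

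The ratio of Prl to Gh was set out by sex, since prolactin cells are relatively more numerous in the female mouse pituitary. Of the females with pituitary counts, Prl exceeded Gh in WT saline 1 (75 against 14 counts), WT saline 5 (81 against 8) and WT AAV 5 (49 against 7). In males Gh exceeded Prl in WT saline 3 (670 against 190), WT AAV 3 (1200 against 340), WT AAV 1 (66 against 15), WT AAV 2 (39 against 11) and WT saline 2 (8 against 1). WT saline 4 (16 counts of Gh against 18 of Prl) and WT AAV 4 (10 against 13) were near equality. The remaining 4 mice, all of batch 4, had 2 or fewer counts of both together. In the fit over all genes with treatment, batch and sex, the log2 difference between females and males was 2.46 ± 0.90 (SE) for Prl, with an adjusted p of 0.961, and -0.98 ± 1.47 for Gh, with an adjusted p of 0.968 (edgeR quasi-likelihood), so neither passed the test.

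The Prl promoter is shown because Prl was the 1 pituitary hormone that still passed the trend among the other 12 mice. It comes from the RefSeq promoter table on GRCm38.p6 (chr13:27057320-27057619, plus strand, from 250 bases before to 50 after the gene start), and capitals mark TATNCAT on either strand, the core of the site bound by the pituitary factor POU1F1, which begins 148 and 47 bases before the gene start here and is held by 8.84% of 32851 promoters in that table.
Prl promoter: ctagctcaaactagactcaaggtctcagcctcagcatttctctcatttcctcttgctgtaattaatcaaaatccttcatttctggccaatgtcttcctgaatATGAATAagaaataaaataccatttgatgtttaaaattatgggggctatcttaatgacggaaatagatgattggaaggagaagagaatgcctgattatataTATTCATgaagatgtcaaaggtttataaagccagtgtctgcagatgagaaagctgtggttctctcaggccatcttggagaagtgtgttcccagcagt

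**Figure D4:**
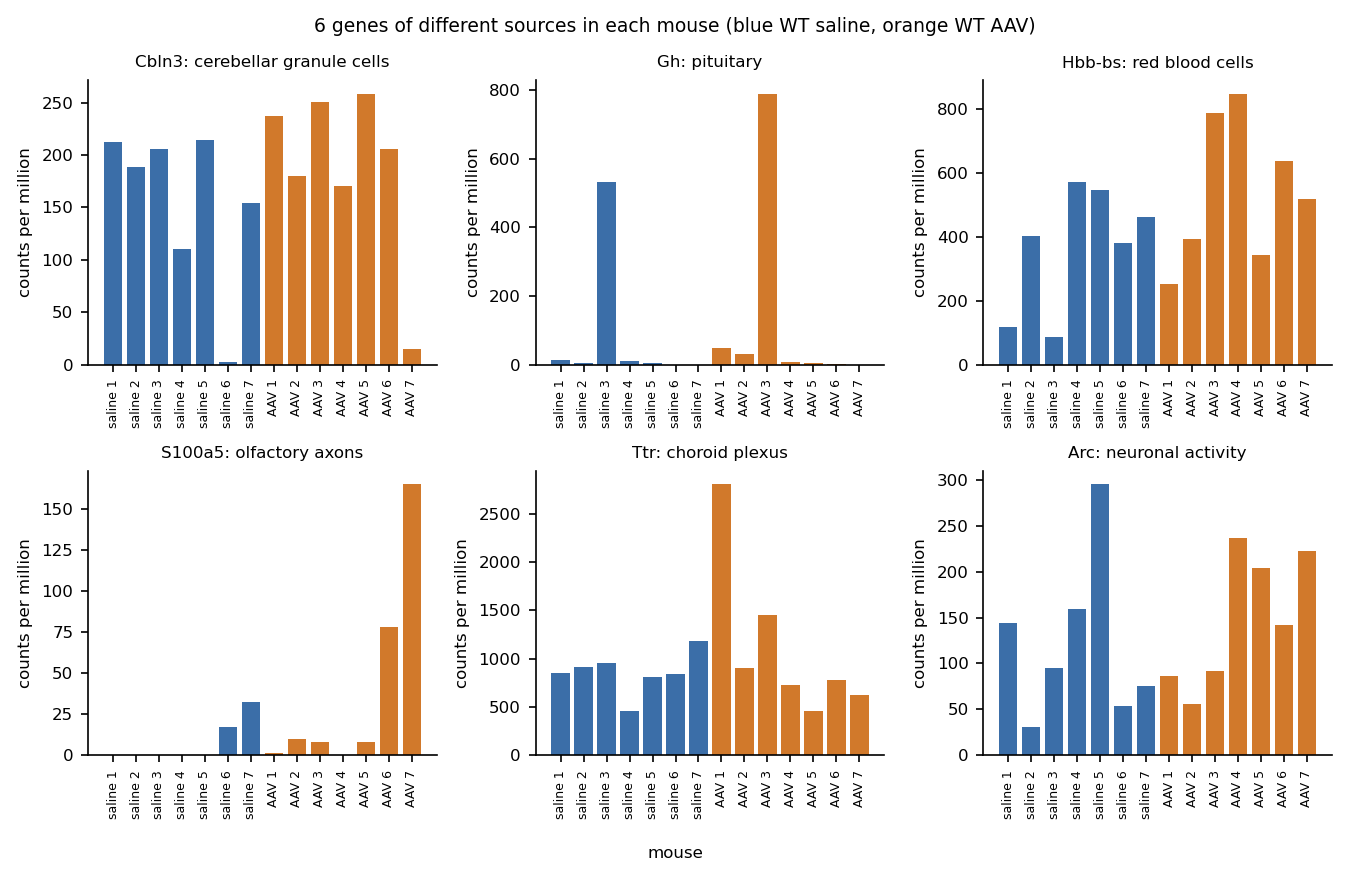
Level (vertical axes, CPM, from 0) of 6 genes in each mouse, WT saline in blue and WT AAV in orange. Cbln3 is nearly missing from WT saline 6 and WT AAV 7, Gh is concentrated in WT saline 3 and WT AAV 3, S100a5 in WT AAV 6 and 7, and Ttr in WT AAV 1, while Hbb-bs and Arc vary across most mice.

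Transcripts of olfactory sensory axons were found although the bulb had been excluded. S100a5, a calcium-binding protein of olfactory sensory neurons, was highest in the 4 mice of batch 4, at 165 CPM in WT AAV 7, 77.9 CPM in WT AAV 6, 32.6 CPM in WT saline 7 and 17.4 CPM in WT saline 6. It stayed at or under 9.81 CPM in the other 10 and had no count in 6 of them. Omp, the olfactory marker protein, kept the same order at 78.5, 34.7, 19.9 and 6.46 CPM, with at most 6.27 CPM elsewhere. The cell bodies of these neurons lie in the nose and their axons end in the bulb. Doc2g, which bulb mitral and tufted cells make, was at 12.9 to 28.1 CPM in batch 4 and at 12.3 to 14.1 CPM in WT AAV 2, 3 and 5, and the other 7 mice had no more than 3.4 CPM.

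Of 14 tested bulb genes, 9 varied beyond sampling noise and 4 beyond the trend (Doc2g, Sp8, Cck and Omp). That count was 1 without WT AAV 5, and 2 without WT AAV 1, 4 or 6. The bulb score was 0.45 to 0.91 in batch 4 and -0.72 to 0.32 in the other batches. WT AAV 7 and WT saline 6 thus combined the lowest cerebellar scores of the 14 with bulb scores above 0.

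Hox genes of the hindbrain and spinal cord varied by presence or near absence. Hoxb8, a homeobox gene active from the spinal cord level downwards, was at 7.66, 17.6, 12.7 and 13.1 CPM in WT saline 1 to 4 and at 16.5 CPM in WT AAV 5. It was at 3.60 CPM in WT AAV 1 and below 1 CPM, or without a count, in the other 8. Hoxa5, active from the lower hindbrain downwards, was at 17.0, 15.0, 19.0 and 9.67 CPM in WT saline 1 to 4 and 13.3 CPM in WT AAV 5, at 1.42 to 8.56 CPM in 5 others and without a count in WT saline 5 and 7 and WT AAV 4 and 7. Of 5 tested genes on the list, 2 varied beyond the trend (Hoxa5 and Hoxb5), and 13 were too low to test. It was 1 of 5 without WT saline 5, WT AAV 4 or WT AAV 5.

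Red blood cell transcripts also differed between mice, although the animals had been perfused. The biological coefficient of variation was 47.1% for Hbb-bs and 64.6% for Hba-a1, against 87.7% for Cbln3 and 91.8% for Pcp2. Hbb-bs, the main adult beta globin, had a lowest, median and highest level of 87.2, 404 and 573 CPM in WT saline mice and of 252, 520 and 850 CPM in WT AAV mice. The groups overlapped, and WT saline 3 and WT saline 1 (119 CPM) were the lowest of the 14. Counts of the 4 adult globin genes together ran from 153 to 2020 per library with a median of 834, which is 0.0119% to 0.125% of all counts. Hba-a1 and Hba-a2, which encode the same alpha globin, ran from 4.76 to 109 CPM and from 5.55 to 78.9 CPM. Hbb-bt, the other adult beta globin gene counted, ran from 23.8 to 188 CPM. Alpha globin made up 8.03% to 15.7% of globin counts with a median of 12.9%. The order of the mice was shared: WT saline 3 was the lowest and WT AAV 4 the highest in all 4 globins.

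Of 9 tested genes on the red cell list, 5 varied beyond sampling noise and 4 beyond the trend, the 4 globins. Bpgm, an enzyme of red cells that brain cells also make, was steady at 113 ± 7.16 CPM. WT AAV minus WT saline was 0.65 ± 0.22 (log2, SE) for Hbb-bs, with an unadjusted p of 0.00664 and an adjusted p of 0.998 (edgeR), so the treatment groups were not shown to differ. Of 6 tested leukocyte genes 3 varied beyond sampling noise and none beyond the trend, and the score of that list ran from -0.86 in WT saline 6 to 0.43 in WT saline 2. Lyz2, which microglia also make, ran from 388 to 760 CPM.

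Globin promoters are shown because the 4 globin genes lie on 2 chromosomes and yet ranked the mice nearly alike. Sequences are from the RefSeq promoter table on GRCm38.p6, and capitals mark CCACACCC, the core of the site bound by the red cell factor KLF1 (held by 3.56% of 32851 promoters), and CCAAT, a common promoter box (37.4%), each searched on both strands. The Hba-a2 promoter (chr11:32296242-32296541) was identical to that of Hba-a1 over all 297 bases that the 2 windows share when shifted by 3 bases. Tags of the 2 genes may likewise be hard to assign, and how shared tags were counted was not given. The split between the 2 genes and the alpha share of globin counts are therefore uncertain.
Hbb-bs promoter (chr7:103827879-103828178, minus strand): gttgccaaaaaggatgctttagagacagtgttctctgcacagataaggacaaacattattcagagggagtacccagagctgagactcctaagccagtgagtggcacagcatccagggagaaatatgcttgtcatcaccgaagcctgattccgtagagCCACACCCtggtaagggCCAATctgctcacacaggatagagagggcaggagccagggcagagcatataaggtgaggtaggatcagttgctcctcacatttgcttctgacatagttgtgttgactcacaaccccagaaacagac
Hba-a1 promoter (chr11:32283422-32283721, plus strand): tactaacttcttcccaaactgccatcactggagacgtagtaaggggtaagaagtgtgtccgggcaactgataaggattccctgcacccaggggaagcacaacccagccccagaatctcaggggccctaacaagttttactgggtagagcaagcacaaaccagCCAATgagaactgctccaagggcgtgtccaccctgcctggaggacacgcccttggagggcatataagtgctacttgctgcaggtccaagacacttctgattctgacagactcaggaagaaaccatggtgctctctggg

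Choroid plexus, the tissue that makes cerebrospinal fluid, stood out in 1 mouse. Ttr, the thyroxine carrier transthyretin, was at 2807 CPM in WT AAV 1, against 1449 CPM in WT AAV 3 and 455 to 1179 CPM in the other 12. Enpp2, a lipid-processing enzyme made by choroid plexus and by oligodendrocytes, was at 576 CPM in WT AAV 1 and 166 to 349 CPM in the rest. Of 14 tested genes, 3 passed the trend (Ttr, Clic6 and Enpp2), and 1 did without WT AAV 1 or without WT saline 1. Clic6, a chloride channel protein, did not peak in the same mouse: it was highest in WT saline 3 at 35.7 CPM, with WT AAV 1 next at 28.1 CPM.

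Genes induced by neuronal activity were another variable set. Arc, which regulates glutamate receptors at active synapses, ran from 30.6 CPM in WT saline 2 to 295 CPM in WT saline 5, with medians of 95.2 CPM in WT saline and 142 CPM in WT AAV mice. Nr4a1, an early response transcription factor, ran from 10.9 to 94.1 CPM. Of 17 tested immediate early genes, 10 varied beyond sampling noise and 2, Arc and Nr4a1, beyond the trend. Fos, the classical marker, ran from 5.27 to 29.0 CPM and did not pass the trend (adjusted p 0.263). The list score was 0.27 to 0.48 in the 4 mice of batch 3 and -0.51 to 0.20 in the others, and Arc and Egr1 passed the test between batches (adjusted p 0.0162 and 0.00763).

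The 178 variable genes with a mean of at least 5 CPM were grouped by how their residuals moved together over the 14 mice. This gave 4 groups of at least 8 genes, holding 137 genes, and 41 genes stood outside, among them Gh, Prl, Pomc, Cga, Ttr, Arc, Oxt and Ddx3y. The grouping uses the same values that chose the genes and is a description with no test.

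The largest group, of 79 genes, held genes of many functions. By p it was led by Tsc22d4, Araf, Nrn1 and mt-Nd3, and Gnb2 was the gene nearest to the group mean. It also held Snhg8, Gja1, Eif4a2, Ppia and Rps6. These encode different kinds of product: a leucine zipper protein, a kinase, a neuronal surface protein, a respiratory chain subunit, a G protein subunit, a small RNA host transcript, the astrocyte gap junction protein connexin 43, a translation factor, a protein-folding enzyme and a ribosomal protein. Tsc22d4 ran from 14.5 to 40.2 CPM in 6 mice (WT saline 6 and 7 and WT AAV 3, 4, 6 and 7) and from 93.6 to 196 CPM in the other 8, with nothing between. Araf showed the same gap, with 18.4 to 36.8 CPM in these 6 mice and 62.1 to 147 CPM in the others. Gja1 was at 29.9 to 142 CPM and 190 to 249 CPM.

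The same mice were low throughout the group. For each gene the 6 lowest mice were counted: WT saline 7 was among them in all 79 genes, WT AAV 4 and WT AAV 6 in 78 each, WT AAV 7 in 75, WT saline 6 in 57 and WT AAV 3 in 55, while no other mouse was among them in more than 19. Over all tested genes each mouse was among the 6 lowest in 41.0% to 45.0% of genes. These 6 libraries include all of batch 4 and 1 each of batches 2 and 3. They hold both the smallest total of the series' wildtype libraries (1164637 in WT saline 7) and the largest (1613308 in WT AAV 4), and their RNA integrity numbers, 9.1 to 9.7, lie within the range of the others, 9.1 to 9.9. Tsc22d4 was among the 10 genes with the smallest p between batches (adjusted p 0.0136), a call lost in 4 of 24 refits: with a mean count of at least 50 (0.0640), without WT saline 7 (0.0661), by DESeq2 (0.0668) and without the 2 libraries low in cerebellum (0.0620). The part of batch or library preparation in this group was not tested.

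The second group, of 30 genes, was cerebellar: 11 of its genes were on that list, and it also held Grm4, a glutamate receptor of granule cells, Cnpy1, Gng13 and S100b. Its score was -1.78 in WT saline 6 and -0.93 in WT AAV 7, and -0.17 to 0.83 in the rest. Xist and Omp fell into the same group, though neither is a cerebellar gene.

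In the third group, of 15 genes, those nearest to the group mean were non-coding or predicted transcripts such as Kcnq1ot1. The group also held Hoxb8, Hoxa5, Gria4, a glutamate receptor subunit, and Eef1a1. Hoxa5 and Eef1a1 had its lowest correlations with the group mean, 0.63 and 0.60, and Hoxa5 was its only gene on the hindbrain list. WT AAV 5 was the highest at 1.34 and WT saline 3 next at 0.94, with WT AAV 3 (-0.83) and WT AAV 7 (-0.80) the lowest.

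The fourth group, of 13 genes, placed the 4 globins beside cortical genes. Nrgn, a postsynaptic protein of forebrain dendrites, ran from 952 CPM in WT saline 3 to 2004 CPM in WT AAV 4, the same 2 mice that bounded Hbb-bs. Cck, a cortical neuropeptide, and Rprm, a deep-layer marker, were in it too. The group score was lowest in WT saline 3 at -1.0 and highest in WT AAV 4 at 0.70. On the cortical list 2 of 21 tested genes passed the trend, Nrgn and Rprm, and the score of that list was -0.42 in WT saline 3 and 0.28 in WT AAV 4.

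**Figure D5:**
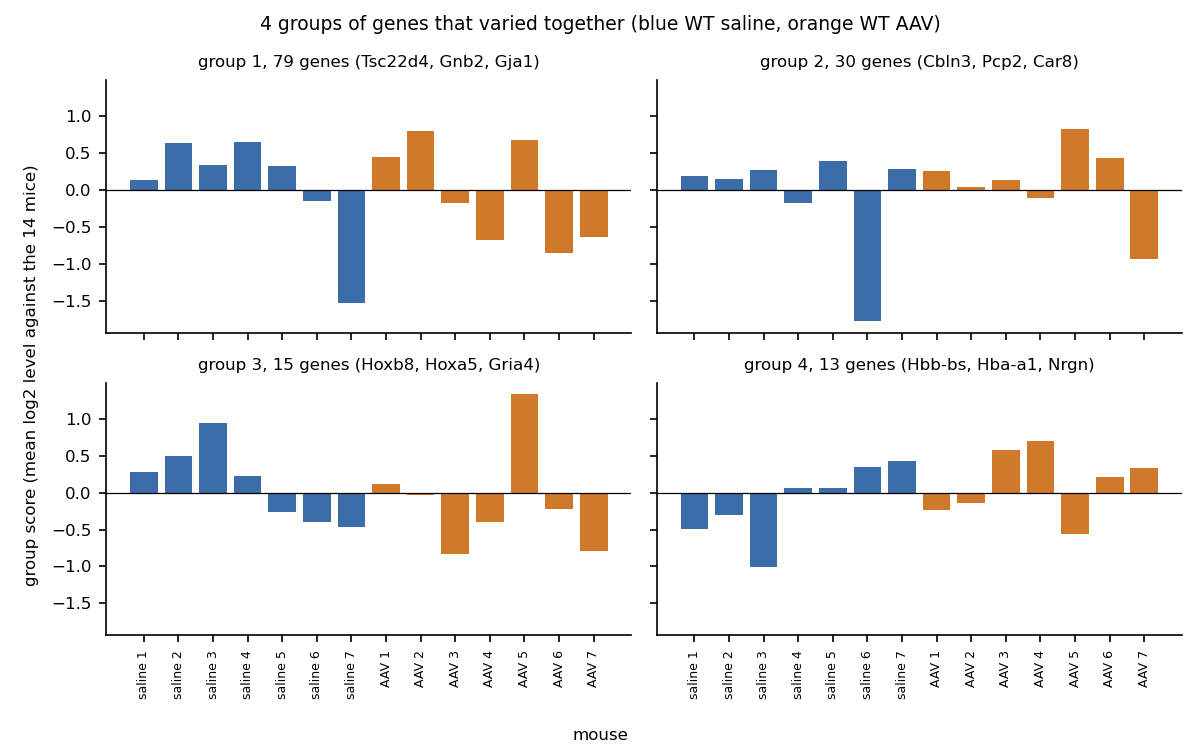
Group score (vertical axes, mean log2 level against the average of the 14 mice) of the 4 groups of variable genes in each mouse, WT saline in blue and WT AAV in orange. Group 1 is lowest in WT saline 7, group 2 in WT saline 6, and group 4 in WT saline 3, and group 3 is highest in WT AAV 5.

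In 10 further lists no gene passed the trend. At the 1.65% of all genes, lists of this size hold fewer than 1 such gene on average, so nothing about their members is read from these counts. Beyond sampling noise, where 21.0% of all genes varied, 11 of 24 myelinating oligodendrocyte genes, 7 of 20 microglial genes, 7 of 12 hippocampal genes, 5 of 13 oligodendrocyte precursor genes and 5 of 10 glucocorticoid response genes did. For endothelium it was 6 of 20, for the circadian clock 5 of 17, for stress chaperones 3 of 19, for interferon response 2 of 14 and for pericytes and smooth muscle 2 of 10. The microglial score stayed between -0.20 and 0.24. Interferon genes were low, led by Ifi27 at 67.6 ± 14.4 CPM.

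Other lists held 1 to 3 genes beyond the trend, and the counts of 1 in the longer ones are near the 1.65% of all genes. For striatal projection neurons 3 of 18 passed: Ppp1r1b (the dopamine signalling protein DARPP-32, 125 to 249 CPM), Penk (the enkephalin precursor, 73.4 to 174 CPM) and Rxrg (20.4 to 66.8 CPM). For astrocytes 2 of 21 passed, Gja1 and S100b, of which Gja1 belonged to the 79-gene group and had an adjusted p of 0.0800 without WT saline 7. For inhibitory neurons it was 2 of 17 (Gad1 and Pvalb), for hypothalamic neuropeptides 2 of 13 (Pomc and Oxt, the latter from 1.82 to 29.3 CPM), for meninges 1 of 16 (Ogn), for thalamus 1 of 15 (Zic1, also a cerebellar gene), for ependymal cilia 1 of 4 (Foxj1) and for midbrain 1 of 5 (Aldh1a1). Of the 34 tested genes on the list of ribosomal proteins 32 varied beyond sampling noise and 1, Rpl35, beyond the trend. Ribosomal protein genes outside that list passed too, namely Rpl17 (adjusted p 7.68e-08), Rps6 (1.21e-06) and Rpl7a (0.00343). Of the 10 tested genes on the mitochondrial list all varied beyond noise and 1, mt-Nd3, beyond the trend, and so did the mitochondrial transfer RNA genes mt-Ta (adjusted p 0.00303) and mt-Tq (0.0428), which were not on it.

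Sex, treatment and batch were then tested with edgeR's quasi-likelihood method. Between females and males 3 of 11369 genes (0.0264%) differed. Xist, the RNA that silences one X chromosome, averaged 118 CPM in females and 0.531 CPM in males (log2 difference 7.35 ± 0.39 (SE), adjusted p 2.48e-13, 6 females and 8 males, no overlap). The Y-linked Ddx3y, an RNA helicase, averaged 7.65 and 97.4 CPM (log2 -3.53 ± 0.19, adjusted p 2.48e-13) and Eif2s3y, a translation factor, 1.42 and 11.8 CPM (log2 -2.62 ± 0.41, adjusted p 0.00326). Sex labels and transcripts matched in all 14. Females still held 5 to 13 counts of Ddx3y and 0 to 5 counts of Eif2s3y. Ddx3y has an X-linked homologue, Ddx3x, at 114 ± 16.8 CPM over both sexes. The source of the counts in females was not tested. The Eif2s3y call was lost without batch 3 (log2 -2.67, adjusted p 0.475) and without batch 4 (log2 -2.88, adjusted p 0.0646), with differences no smaller than in all 14.

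Between WT AAV and WT saline mice 1 gene (0.00880%) passed, the olfactory axon gene S100a5, at a mean of 38.6 against 7.15 CPM (log2 difference 2.54 ± 0.35, adjusted p 0.000764). Omp had a log2 difference of 2.27 ± 0.42 and an adjusted p of 0.0632. The groups overlapped in S100a5, with lowest, median and highest values of 0, 7.91 and 165 CPM in WT AAV and 0, 0 and 32.6 CPM in WT saline mice. Without WT saline 6 the log2 difference of S100a5 was 2.31 (adjusted p 0.142), without WT AAV 7 it was 2.17 (0.176) and without batch 4 it was 5.90 (1.00), so the call was lost while the direction stayed. With all 14 libraries it was also lost with sex as a term (2.16, adjusted p 0.0676), with treatment alone (2.45, 1.00), by DESeq2 (3.90, 0.369) and by limma-trend (2.21, 0.0636). Batch differences passed in 103 genes (0.906%), led by S100a5, Omp, Gh, Fam81a, Gng4, Pomc, Cga, Egr1, Cnr1 and Tsc22d4. Their number was 16 without WT saline 7, 18 without WT AAV 7, 229 without WT AAV 3 and 347 without WT AAV 4, and it was also more than 1.5 times lower without WT saline 2, 3, 4 or 5 or WT AAV 1, 2 or 6 (37 to 64) and higher without WT AAV 5 (175).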

How the data were processed

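One hemibrain per mouse was profiled with Lexogen's QuantSeq 3' kit (FWD) with unique molecular identifiers, per the labels' protocols. Per the submitters' processing notes, the tools were STAR, edgeR 3.40.2 in R 4.2, FastQC 0.11.5 and MultiQC 1.0, with build GRCm38.p6. The software, strandedness and gene models of the counting step were not given in the sources used here. Overlapping and antisense genes are therefore uncertain. The deposited counts per gene are rounded to 2 significant digits (100% of values). Values of 100 or more, changed by up to 4.76%, were 4.66% of values and 77.5% of counts. The authors also deposited normalized CPM, a signal scaled per library, which served 1 alternative. Their deposited normalization factors, ratios between libraries, were not used. The RIN score is given per the labels, and RNA concentration and library totals come from the authors' deposited sample sheet. Column totals differed from those recorded by at most 0.160%.

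Members and gene lists were chosen with earlier results of these data known. Replicates are separate mice, numbered in the order of the samples. Counts of the 14 libraries were filtered by filterByExpr (minimum count 10, minimum total 15), normalized by TMM and fitted with treatment and batch in edgeR 4.0.16 (R 4.3.3). Variation beyond sampling noise used a Pearson chi-square whose variance was the fitted mean plus the rounding variance, and variation beyond the trend used edgeR's goodness of fit with the trended dispersion. The common biological coefficient of variation was 11.8%. Sex, treatment and batch used glmQLFTest, with Benjamini-Hochberg adjustment over 11369 genes and a threshold of 0.05. The SE is the log2 fold change divided by the square root of F. List and group scores used log2 CPM with a prior count of 2. Groups came from average linkage on 1 minus Pearson r, with the tree divided at 0.5. Named genes are the 25 most abundant, the 30 most variable (mean of at least 5 CPM, no predicted models), the 10 steadiest above 100 CPM, up to 6 per list, 10 per contrast and the 6 nearest each group mean; Tshb, Hoxb5, Gria4, Grm4, Gng13, Eef1a1 and other group members were named after their values were seen. A few genes named by these rules are not reported here. Scripts were tested on simulated data. Alternatives used DESeq2 1.42.0 and limma 3.58.1. Of 53801 gene IDs, 53620 were matched to current symbols.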

Additional observations from a re-analysis of the deposited data

Results flagged for a closer look

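Within each treatment group of 7 mice, the level of 55 genes and the scores of 30 lists were searched for a mouse far from the other 6, judged by its gap to the nearest mouse as a share of the group's range (Dixon's test at the 95% level). Of 170 groups, 27 (15.9%) held such a mouse, where chance alone flags about 1 in 20; 30 of the 55 genes had been picked as the most variable in these same mice and many measure the same tissue, so the share cannot be read against chance.

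For the cerebellum, the list score was -1.741 in WT saline 6 and -1.425 in WT AAV 7. Cbln1 (11.63 CPM) and Neurod1 (11.63 CPM) were apart in WT saline 6, and Cbln1 (19.82 CPM), Neurod1 (23.95 CPM) and Cbln3 (14.87 CPM) in WT AAV 7. For the pituitary, the list score was 2.696 in WT saline 3, with Gh at 531.4, Prl at 150.7, Pomc at 150.7 and Cga at 87.24 CPM, and 2.91 in WT AAV 3, with Gh at 790.6, Prl at 224.0, Pomc at 197.6 and Cga at 118.6 CPM. WT AAV 3 was also low in the meningeal list (-0.7145). WT saline 6 was low in the leukocyte list (-0.8569) and in the ribosomal protein gene Rps21 (2584 CPM). WT AAV 5 was low in the glucocorticoid list (-0.3034) and high in Hoxb8 (16.46 CPM) and mt-Rnr2 (72911 CPM). WT saline 7 was low in Gnb2 (32.64 CPM) and high in mt-Nd4 (39898 CPM) and Cpe (3899 CPM). WT AAV 1 was high in Ttr (2807 CPM). WT saline 7 had the smallest total count of the 14, the 2 libraries low in cerebellum were both of batch 4 and the 2 high in pituitary both of batch 2. The part of depth and batch in these values was not tested.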

How the results depend on the processing

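No paired analysis was possible because replicate numbers only follow the order of the samples. No sex or treatment difference of a named gene and no list score examined changed direction. Measures of variation and of batch differences are never negative, so they could not. Leaving out 1 mouse at a time gave 1894 to 2387 genes beyond sampling noise, 122 (without WT AAV 4) to 190 beyond the trend, 3 to 6 for sex, 0 to 4 for treatment and 16 to 347 for batch; the cause was not tested. Genes beyond noise were 898 in WT saline mice alone and 1396 in WT AAV mice alone, where fewer samples were fitted, and genes beyond the trend 68 and 97. With a mean count of at least 50, genes beyond the trend were 118, treatment 0 and batch 6. Without a filter, sex gave 25, treatment 18 and batch 568. Treatment gave 2 with library totals or without batch 3, and 0 when fitted alone, with sex as a term, without batch 4, by DESeq2 or by limma-trend (308 at an unadjusted p under 0.05 in the main analysis). Sex gave 5 when fitted alone and 6 without batch 1. Batch gave 44 with sex as a term, and 64 without the 2 libraries low in cerebellum, chosen after seeing the data. For named genes, 767 of 787 refits of variation kept their call, and 20 lost it. Of 120 list values 116 kept their size; with a prior count of 0.5, the lowest scores were -0.80 for midbrain, -2.03 for hindbrain, -1.22 for leukocytes and -0.33 for the X and Y list. Grouping the genes with the tree divided at 0.3 gave 3 groups of at least 8 genes, holding 99 genes. The cerebellar group remained with 23 genes. The 79-gene group was split into a group of 53 genes with Gnb2 and Gja1 and a group of 23 genes with mt-Nd3 and Ppia. The group of globins and cortical genes and the group with Hoxb8 and Hoxa5 were not found at 0.3. These groupings therefore depended on where the tree was divided. Depth limits genes under 10 CPM, where few calls were made.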

Other observations

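Gpnmb, a glycoprotein of lysosomal membranes, and Mmp12, a secreted elastase of macrophages, were looked at after their values were seen. Gpnmb ran from 137 CPM in WT saline 2 to 502 CPM in WT saline 5 (mean 290 ± 109 CPM) and varied beyond the trend (edgeR goodness of fit, adjusted p 0.000291). Mmp12 ran from 6.51 to 58.3 CPM in the same 2 mice (mean 26.9 ± 14.2 CPM, adjusted p 0.000779). In both genes WT saline 2, WT saline 1 and WT AAV 1 were the 3 lowest mice and WT saline 5 the highest. Both differed between batches (edgeR quasi-likelihood, adjusted p 0.0147 for Gpnmb and 0.0481 for Mmp12). Cx3cr1, a receptor of microglia, did not pass against the trend, at 74.5 to 145 CPM (adjusted p 0.539). Grn varied beyond sampling noise, from 78.2 CPM in WT saline 2 to 269 CPM in WT saline 4, but not beyond the trend (adjusted p 0.0911), and differed between batches (adjusted p 0.0194).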
